A study of Mus musculus with 11 samples.

Results

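The 10 genes described here encode the transcription factors that islet biology uses to define the β-cell and the wider endocrine lineage: *Mafa*, *Pdx1*, *Nkx6-1*, *Nkx2-2*, *Neurod1*, *Pax6*, *Isl1*, *Rfx6*, *Foxa2* and *Insm1*. They were taken by name from the 34745 entries of the table of expression values, all 10 were found there, and all 10 were expressed above the minimum used for testing. RNA had been sequenced from GFP-positive islet cells of 8-week-old male mice on a C57BL/6 x 129SV background. A GFP label at *Rosa26* had been switched on in these cells by RIP-Cre, in which the promoter of the rat insulin gene controls Cre, so that GFP marks every cell in which this promoter has been active, whether or not the cell still makes insulin. The WT group (n = 3 libraries) carried RIP-Cre and *Rosa26*-GFP with intact *Raptor*. The diabetic group (n = 4) carried the same 2 alleles with both copies of *Raptor* deleted (βRapKOGFP). The euglycemic group (n = 4) had the genotype of the diabetic group and had in addition received insulin for 4 weeks from an implant, called a pellet in the sample labels and an osmotic pump in the study's methods. Whether a library holds the cells of 1 animal or of several is not given in the sources used here, so p-values measure the spread between libraries.

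These factors act as a network in which each binds the promoters or enhancers of several others. *Pdx1*, *Foxa2*, *Neurod1*, *Nkx2-2*, *Insm1*, *Pax6*, *Isl1* and *Rfx6* are needed while endocrine cells form, and most of them are kept in α-, δ- and PP-cells as well, whereas *Nkx6-1* and *Mafa* are in the adult mouse islet largely restricted to β-cells. *Pdx1*, *Neurod1* and *Mafa* bind the insulin promoter directly, and *Mafa* appears late, when β-cells become responsive to glucose. Raptor is the subunit that recruits substrates to mTOR complex 1, a kinase complex that couples nutrients and insulin to protein synthesis. The question put to the data was how the mRNA of these factors stood in β-cells that lacked *Raptor*, with and without high blood glucose.

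The deleted gene was checked first. *Rptor* was 0.948, 1.36 and 1.79 FPKM in the WT libraries, 0.485 to 0.937 in the diabetic libraries and 0.423 to 0.623 in the euglycemic libraries, where FPKM counts fragments relative to transcript length and to all fragments mapped. All mutant values were below all WT values. A two-sided exact permutation test against WT gave p = 0.0571 in the diabetic group and p = 0.0286, the smallest that 35 assignments allow, in the euglycemic group. The libraries carried the defining β-cell mRNAs at high level. *Ins1* was between 47726 and 101797 FPKM and *Ins2* between 22121 and 80670 FPKM in all 11 libraries. Markers of other cells were not at the same level in the groups. The summed FPKM of 8 α-cell markers was 1081 to 2488 in WT, 4149 to 14956 in diabetic and 4950 to 23919.8 in euglycemic libraries. The summed FPKM of 3 δ-cell markers was 1176 to 2514, 4941 to 12262 and 4864 to 13953 in the same order, and that of the 2 PP-cell markers 513 to 1107, 3674 to 12979.7 and 4984 to 14238. The sum of 14 acinar markers reached 57.5 FPKM in WT, was 24.8 to 3287 in diabetic and 18.9 to 5889 in euglycemic libraries, and the sum of 6 duct markers was 58.1 to 71.8, 57.8 to 88.4 and 97.1 to 133. Among 10 endothelial markers 4 were at 0 in every WT library, and their sum was 1.68 to 4.23 in WT, 9.12 to 53.6 in diabetic and 1.40 to 4.65 in euglycemic libraries. By the limma test described below, *Gc*, *Ppy*, *Pyy* and the duct marker *Spp1* passed with higher values in both mutant groups, *Gcg*, *Sst*, *Rbp4* and *Krt19* in the euglycemic group, and the endothelial marker *Plvap* in the diabetic group. Fewer cells of a type and less RNA per cell cannot be told apart in such samples, and the part of these other cells in the differences below was not tested.

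In WT cells the levels of the 10 factors spanned from 5.10 ± 0.120 FPKM (SD, n = 3) for *Pax6* to 129 ± 19.9 for *Neurod1*, the basic helix-loop-helix factor that drives endocrine differentiation. *Pdx1*, the homeodomain factor at the top of pancreas development, followed with 90.7 ± 12.3, and then *Insm1* (60.1 ± 23.8), *Nkx6-1* (52.1 ± 7.24), *Mafa* (42.5 ± 26.9), *Nkx2-2* (37.8 ± 18.4), *Isl1* (32.5 ± 1.98), *Rfx6* (30.5 ± 5.18) and *Foxa2* (16.0 ± 5.43). Of the 9 neighbouring pairs in this order, 3 did not overlap in any WT library, namely *Neurod1* over *Pdx1*, *Rfx6* over *Foxa2* and *Foxa2* over *Pax6*, while the 6 pairs between *Pdx1* and *Rfx6* overlapped. *Neurod1* was the highest of the 10 in all 11 libraries, and *Pax6* was in rank 9 or 10. The FPKM of *Pax6* depends on the length by which its fragments were divided. Its exons in GENCODE merge to 11694 bases over 26 transcripts, but its longest transcript has 4427 bases, and the length the authors used is not given in the sources used here.

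**Figure D1:**
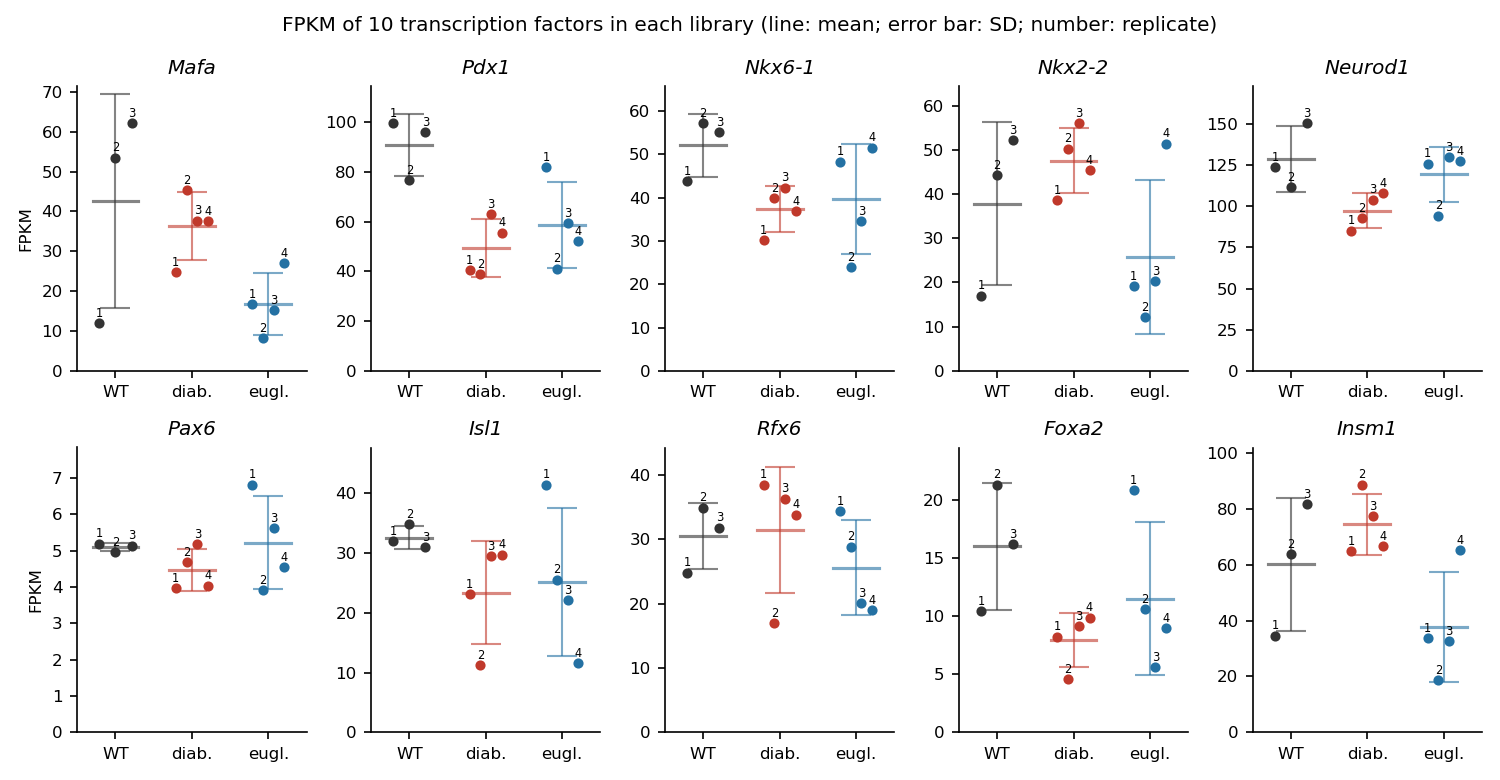
FPKM (y axis, linear, from 0) of each of the 10 transcription factors in each library, by group (x axis: WT, n = 3; diabetic and euglycemic βRapKOGFP, n = 4 each), with a line at the mean, an error bar of 1 SD and the replicate number at each point. The 4 diabetic points of *Pdx1* lie between 39.0 and 63.0 and all 3 WT points above them, and WT replicate 1 lies far below the other WT libraries in *Mafa*, *Nkx2-2* and *Insm1*.

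Expression on the log2(FPKM + 1) scale was compared between groups with limma over 11251 genes, and a gene was called where the adjusted p did not exceed 0.05 and the change was 1.5-fold or more. None of the 10 factors was called in any comparison. In diabetic against WT libraries 0 of 10 were called, where 0.969% of all genes tested were, and the adjusted p of the factors ranged from 0.152 to 0.994. In euglycemic against WT libraries 0 of 10 were called against 0.551% of all genes, in diabetic against euglycemic libraries 0 of 10 against 0.00889%, and in both mutant groups together against WT 0 of 10 against 1.05%. With p left unadjusted and the same limits, 2 factors passed in diabetic against WT (*Pdx1* and *Foxa2*, both lower), beside 8.26% of all genes, and 2 in euglycemic against WT (*Mafa* and *Pdx1*, both lower), beside 9.92%. The corresponding numbers were 3 in diabetic against euglycemic (*Mafa*, *Nkx2-2* and *Insm1*, all with higher values in the diabetic group), beside 12.0%, and 2 in both mutant groups against WT (*Pdx1* and *Foxa2*, both lower), beside 6.92%. The median log2 difference of the 10 factors was −0.28, −0.51, −0.049 and −0.35 in these 4 comparisons, where the median of all genes tested was 0.0063, −0.010, 0.0088 and −0.0035.

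The 95% confidence intervals were wide for some factors. In diabetic against WT libraries the interval of *Pax6* ran from −0.58 to 0.26. That of *Rfx6* ran from −0.64 to 0.62 and that of *Mafa* from −1.01 to 1.10, and both span a fall and a rise of more than 1.5-fold. The standard error of the same contrast was 0.19 for *Neurod1* and *Pax6*, 0.25 for *Pdx1* and *Nkx6-1*, 0.43 for *Nkx2-2* and 0.49 for *Mafa*, so the change needed for a call differed widely between the factors.

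**Figure D2:**
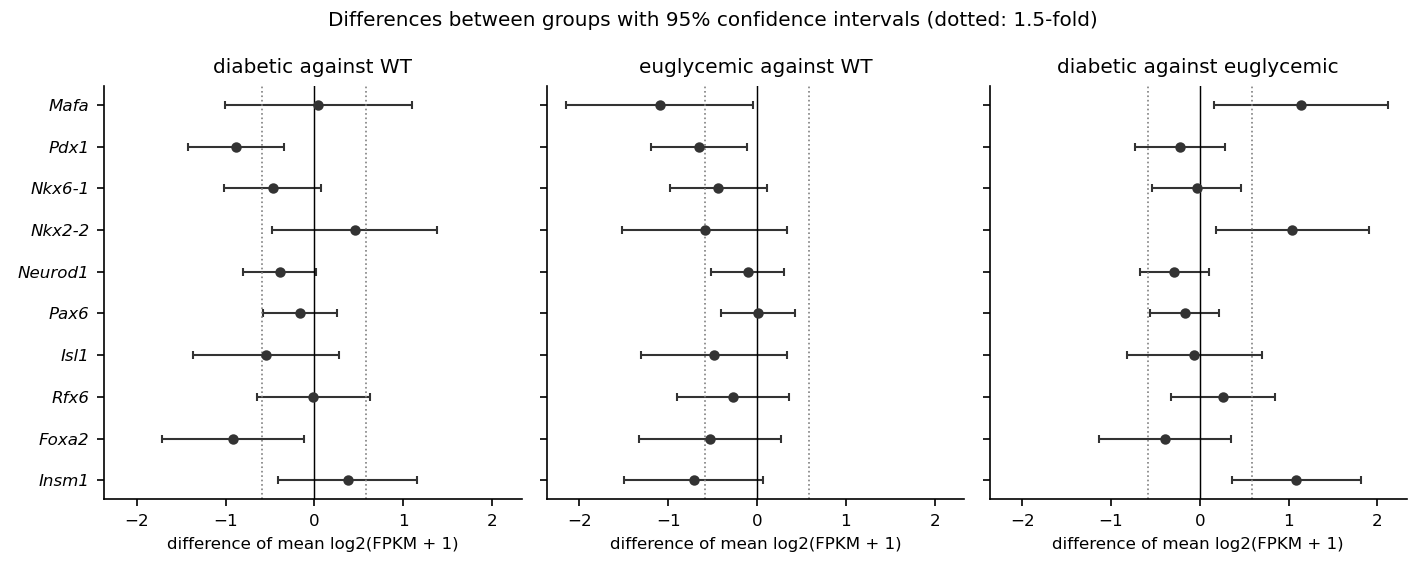
Differences of mean log2(FPKM + 1) between groups (x axis) with 95% confidence intervals from limma (bars) for each factor (y axis) in 3 comparisons, with dotted lines at a change of 1.5-fold. The intervals of *Pdx1* and *Foxa2* lie below 0 in diabetic against WT, those of *Mafa* and *Pdx1* in euglycemic against WT, and those of *Mafa*, *Nkx2-2* and *Insm1* above 0 in diabetic against euglycemic, and none of these differences passed after adjustment.

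A second reading of the diabetic group asked whether the libraries of both groups overlapped at all. For 5 of the 10 factors, *Pdx1*, *Nkx6-1*, *Neurod1*, *Isl1* and *Foxa2*, the highest diabetic value was below the lowest WT value, and this pattern with the diabetic group lower was found in 6.88% of all genes tested (13.5% in either direction). After each library was rescaled to the same total (TPM) the number was 2, *Pdx1* and *Neurod1*, beside 4.90% of all genes. Without WT replicate 1 it was 6, with *Mafa* added, beside 12.6%. No factor was free of overlap in euglycemic against WT libraries, in diabetic against euglycemic libraries or in both mutant groups against WT, where 10.9%, 14.3% and 3.68% of all genes were.

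*Pdx1* (ENSMUSG00000029644; GRCm38, chromosome 5 from 147269959 to 147275848, plus strand, 2 exons) had the smallest p of the 10 factors against WT. Its FPKM was 99.6, 76.6 and 96.0 in WT, 40.6, 39.0, 63.0 and 55.6 in diabetic and 81.9, 41.1, 59.5 and 52.1 in euglycemic libraries. All diabetic libraries were below all WT libraries, while euglycemic replicate 1 lay within the WT range and the other euglycemic libraries below it. In the diabetic group it differed from WT by −0.88 on the log2 scale (standard error 0.25, limma's adjusted p = 0.152), a level 1.84-fold lower, and in the euglycemic group by −0.66 (standard error 0.25, limma's adjusted p = 0.275). The diabetic and euglycemic groups differed by −0.22, with an interval from −0.73 to 0.28. This difference was −0.050 without euglycemic replicate 1 and −0.38 without euglycemic replicate 2. Across 20 alternative settings the diabetic difference stayed between −1.0 and −0.72 and its adjusted p between 0.0687 and 0.350, so that the direction held in each and the call was reached in none. In both mutant groups together against WT the difference was −0.77 (adjusted p = 0.164). With the libraries weighted by their estimated quality, *Pdx1* was called there (log2 difference −0.66, adjusted p = 0.0403), as were *Mafa*, *Nkx6-1* and *Foxa2*, but in that setting 9.92% of all genes tested were called.

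The promoter of *Pdx1* is shown because it holds the canonical E-box, a site that basic helix-loop-helix factors of the USF and MYC type can bind. RefSeq promoter windows (GRCm38.p6, from 250 bases before to 50 bases after a start site) were available for 8 of the 10 factors, 11 windows in all. *Mafa* and *Insm1* were not matched. The letters CACGTG, which read the same on both strands, occurred in 2 of the 11 windows, those of *Pdx1* and *Nkx2-2*, and in 7.15% of all 32851 windows. The 30 bases around each match read as follows, 5′ to 3′ on the strand of the gene, with the E-box in capitals.
*Pdx1*, chr5:147270034-147270063, plus strand: tccagggtaaacCACGTGgggtgccccaga
*Nkx2-2*, chr2:147186558-147186587, minus strand: aagacccgcccaCACGTGgccaacctttgc
The match begins 51 bases before the RefSeq start of *Pdx1* and 173 bases before that of *Nkx2-2*. By the GENCODE annotation, whose *Pdx1* transcript starts further upstream, the *Pdx1* match lies in the non-coding part of exon 1, and the *Nkx2-2* match lies in an intron of a longer transcript. The looser form CANNTG, which includes CACGTG, was found in 7 of the 11 windows (72.3% of all windows), the homeodomain core TAAT on either strand in 7 (58.0%) and the cyclic-AMP response element TGACGTCA in 1, a *Pax6* window (1.79%). These matches are descriptions of the letters, and no binding was measured here.

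*Nkx6-1*, a homeodomain repressor that helps keep genes of other islet cells silent in β-cells, lies on chromosome 5 from 101658139 to 101664996 (ENSMUSG00000035187). It was 43.8 to 57.2 FPKM in WT, 30.2 to 42.3 in diabetic and 24.0 to 51.6 in euglycemic libraries. The log2 difference from WT was −0.47 (standard error 0.25, adjusted p = 0.499) in the diabetic and −0.44 (standard error 0.25, adjusted p = 0.459) in the euglycemic group. *Mafa* aside, it is the factor of the list most restricted to β-cells. The difference between the mutant groups was −0.036, with an interval from −0.54 to 0.47. Euglycemic replicate 2 held the lowest value of all 11 libraries, and without it the euglycemic difference from WT was −0.22, while the diabetic difference stayed between −0.59 and −0.37 without single libraries.

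*Foxa2*, the forkhead factor that opens pancreatic enhancers including those of *Pdx1* (ENSMUSG00000037025; chromosome 2 from 148042877 to 148046969), had a difference about as large as that of *Pdx1* with more spread. It was 10.5, 21.3 and 16.2 FPKM in WT, 8.25, 4.58, 9.13 and 9.88 in diabetic and 20.8, 10.6, 5.63 and 9.0 in euglycemic libraries. The diabetic libraries were all below the lowest WT library, although the gap between the highest diabetic and the lowest WT value was small, and the euglycemic libraries overlapped both groups. Against WT the log2 difference was −0.92 in the diabetic group (standard error 0.37, adjusted p = 0.341). It was −0.53 in the euglycemic group (standard error 0.37, adjusted p = 0.539), and there −0.84 without euglycemic replicate 1, −0.27 without euglycemic replicate 3 and −0.30 without WT replicate 2. In both mutant groups together it was −0.72 (adjusted p = 0.432).

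The LIM-homeodomain factor *Isl1*, which is expressed in all islet endocrine types (ENSMUSG00000042258; chromosome 13 from 116298281 to 116309689), was 31.9, 34.7 and 30.9 FPKM in WT, 23.0, 11.2, 29.4 and 29.7 in diabetic and 41.4, 25.5, 22.1 and 11.6 in euglycemic libraries. Diabetic replicate 2 and euglycemic replicate 4 were well below the others, and euglycemic replicate 1 was the highest of all. The log2 difference of −0.55 in the diabetic group (adjusted p = 0.627) was −0.25 without diabetic replicate 2. The euglycemic difference was −0.49 (adjusted p = 0.585), and it was −0.76 without euglycemic replicate 1 and −0.18 without euglycemic replicate 4. *Neurod1* (ENSMUSG00000034701; chromosome 2 from 79452521 to 79456751) was 111 to 150.4 FPKM in WT, 85.1 to 107.9 in diabetic and 94.2 to 129.8 in euglycemic libraries. Its difference of −0.39 in diabetic against WT (standard error 0.19, adjusted p = 0.453) was among the best measured of the list and corresponds to a level 1.31-fold lower. In euglycemic against WT it was −0.11, with an interval from −0.52 to 0.31.

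*Pax6*, a paired-box factor that keeps the β-cell gene program on (ENSMUSG00000027168; chromosome 2 from 105668900 to 105697364), was 4.96 to 5.19 FPKM in WT, 3.97 to 5.18 in diabetic and 3.91 to 6.81 in euglycemic libraries. *Rfx6*, the winged-helix factor needed for islet formation (ENSMUSG00000019900; chromosome 10 from 51677756 to 51730432), was 24.8 to 35.0 FPKM in WT, 17.0 to 38.5 in diabetic and 19.0 to 34.4 in euglycemic libraries. Their log2 differences from WT were −0.16 and −0.010 in the diabetic group and 0.0065 and −0.27 in the euglycemic group, each smaller than its standard error, and the groups overlapped throughout. Without single libraries the euglycemic difference of *Rfx6* was −0.42 to −0.15.

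*Mafa*, *Nkx2-2* and *Insm1* followed a similar pattern over the libraries. *Mafa*, the basic leucine-zipper activator of the insulin gene (ENSMUSG00000047591; chromosome 15 from 75745490 to 75748228, a single exon), was 11.9, 53.5 and 62.2 FPKM in WT, 24.9, 45.3, 37.7 and 37.6 in diabetic and 16.7, 8.29, 15.3 and 27.1 in euglycemic libraries. *Nkx2-2*, a homeodomain factor that represses non-β programs (ENSMUSG00000027434; chromosome 2 from 147177546 to 147194243), was 17.0, 44.2 and 52.2 in WT, 38.7, 50.2, 56.0 and 45.3 in diabetic and 19.2, 12.2, 20.4 and 51.4 in euglycemic libraries. *Insm1*, a zinc-finger repressor of endocrine precursors (ENSMUSG00000068154; chromosome 2 from 146221921 to 146225020, a single exon), was 34.6, 63.9 and 81.7 in WT, 65.0, 88.6, 77.4 and 66.5 in diabetic and 33.7, 18.8, 32.6 and 65.2 in euglycemic libraries. In each of the 3 genes WT replicate 1 lay with euglycemic replicates 1 to 3 at low values, and the other WT libraries lay with the diabetic libraries at higher ones. Euglycemic replicate 4 lay within the diabetic range in all 3.

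Between the diabetic and the euglycemic group the log2 difference was 1.14 for *Mafa* (standard error 0.45, adjusted p = 0.191 from limma), 1.04 for *Nkx2-2* (standard error 0.40, adjusted p = 0.184) and 1.09 for *Insm1* (standard error 0.34, adjusted p = 0.136), levels 2.06- to 2.21-fold higher in the diabetic group that did not pass the test. Against WT the diabetic differences of the 3 genes were 0.046, 0.45 and 0.38 and the euglycemic ones −1.10, −0.59 and −0.71, with adjusted p from 0.343 to 0.984. For *Mafa* the mean FPKM was lower in the diabetic than in the WT group (36.4 against 42.5), although the difference of mean log2 values was slightly above 0. These values moved with single libraries. Without WT replicate 1 the euglycemic difference of *Mafa* was −1.82 and was called (adjusted p = 0.0258), where 4.76% of all genes were, and that of diabetic *Mafa* changed from 0.046 to −0.68 (adjusted p = 0.549). Mean *Mafa* was 57.9 FPKM in WT replicates 2 and 3 alone. Without WT replicate 3 the euglycemic difference of *Mafa* was −0.68. That of *Nkx2-2* was −1.07 without WT replicate 1, −0.29 without WT replicate 3, −0.31 without euglycemic replicate 2 and −0.98 without euglycemic replicate 4. That of *Insm1* was −0.45 without WT replicate 3 and −0.44 without euglycemic replicate 2. The diabetic difference of *Nkx2-2* was −0.026 without WT replicate 1 and 0.75 without WT replicate 3, and that of *Insm1* was 0.030 and 0.64. With libraries weighted by their estimated quality all 3 genes were called in diabetic against euglycemic libraries (1.42, 1.47 and 1.42 in the order above, adjusted p = 0.0201, 0.0149 and 0.0143), beside 10.8% of all genes. In euglycemic against WT libraries they were called in that setting together with *Nkx6-1*, beside 20.3% of all genes.

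The comparisons of the factors not given so far were as follows. In both mutant groups together against WT the log2 difference was −0.53 for *Mafa*, −0.52 for *Isl1*, −0.45 for *Nkx6-1*, −0.25 for *Neurod1*, −0.17 for *Insm1*, −0.14 for *Rfx6*, −0.078 for *Pax6* and −0.067 for *Nkx2-2*, with adjusted p from 0.489 to 0.981. The 10 differences in this comparison were all below 0 and none passed the test. Without single libraries that of *Mafa* was between −1.25 (without WT replicate 1) and −0.11 (without WT replicate 3), that of *Neurod1* was −0.13 without WT replicate 3, and those of *Rfx6* and *Pax6* were −0.28 to −0.010 and −0.14 to −0.025. That of *Nkx2-2* was above 0 without WT replicate 2 (0.12), WT replicate 3 (0.23) or euglycemic replicate 2 (0.071), and that of *Insm1* without WT replicate 3 (0.093). In diabetic against euglycemic libraries the log2 difference was −0.39 for *Foxa2*, −0.28 for *Neurod1*, −0.17 for *Pax6*, −0.062 for *Isl1* and 0.26 for *Rfx6*, with adjusted p from 0.373 to 0.939. The difference of *Foxa2* was −0.079 without euglycemic replicate 1, −0.18 without diabetic replicate 2 and −0.65 without euglycemic replicate 3. Without single libraries that of *Pax6* was −0.28 to −0.052, that of *Isl1* −0.37 to 0.24 and that of *Rfx6* 0.14 to 0.52.

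The 11 libraries also differed in how levels depended on transcript length, in a way that moved with these 3 genes. For each library, the median deviation from the 11-library mean was taken over the longest 10% of transcripts (at least 6256 bases) and over the shortest 10% (at most 1108 bases). The difference of long minus short was −0.57 on the log2 scale in WT replicate 1 and −0.47 to −0.30 in the 4 euglycemic libraries, but 0.40 and 0.46 in the other WT libraries and 0.030 to 0.68 in the diabetic libraries. The mean deviation of *Mafa*, *Nkx2-2* and *Insm1* was −0.85 in WT replicate 1, −1.45 to −0.66 in euglycemic replicates 1 to 3, 0.57 and 0.84 in the other WT libraries and 0.16 to 0.71 in the diabetic libraries. Euglycemic replicate 4 departed from this, with −0.30 for length and 0.33 for the 3 genes, and the length difference and the 3-gene mean were not in the same order within the diabetic group. The 3 transcripts are not long (2739, 2120 and 3100 bases), but those of *Mafa* and *Insm1* are among the richest in G and C, with a GC content of 65.0% and 62.0%, above 99.4% and 98.1% of the genes tested. *Nkx2-2* has 55.7%, beside 59.0% for *Nkx6-1* and 57.0% for *Foxa2*. Levels in the GC-richest 10% minus the GC-poorest 10% of transcripts ranged from −0.21 in WT replicate 1 to 0.34 in euglycemic replicate 4. In between, they were −0.17, 0.23, −0.090 and −0.14 in the diabetic libraries and −0.083 to −0.059 in euglycemic replicates 1 to 3. This order was not that of the 3-gene mean. When each library's trend with GC content and length was removed before the fit, the diabetic minus euglycemic differences were 0.96, 1.12 and 0.94, with adjusted p = 0.253, 0.220 and 0.178, and 0 factors were called in any comparison. *Mafa* and *Insm1* have single exons, so that the fragments behind each value could be inferred, and these were 337 to 2306 for *Mafa* and 864 to 3432 for *Insm1*.

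**Figure D3:**
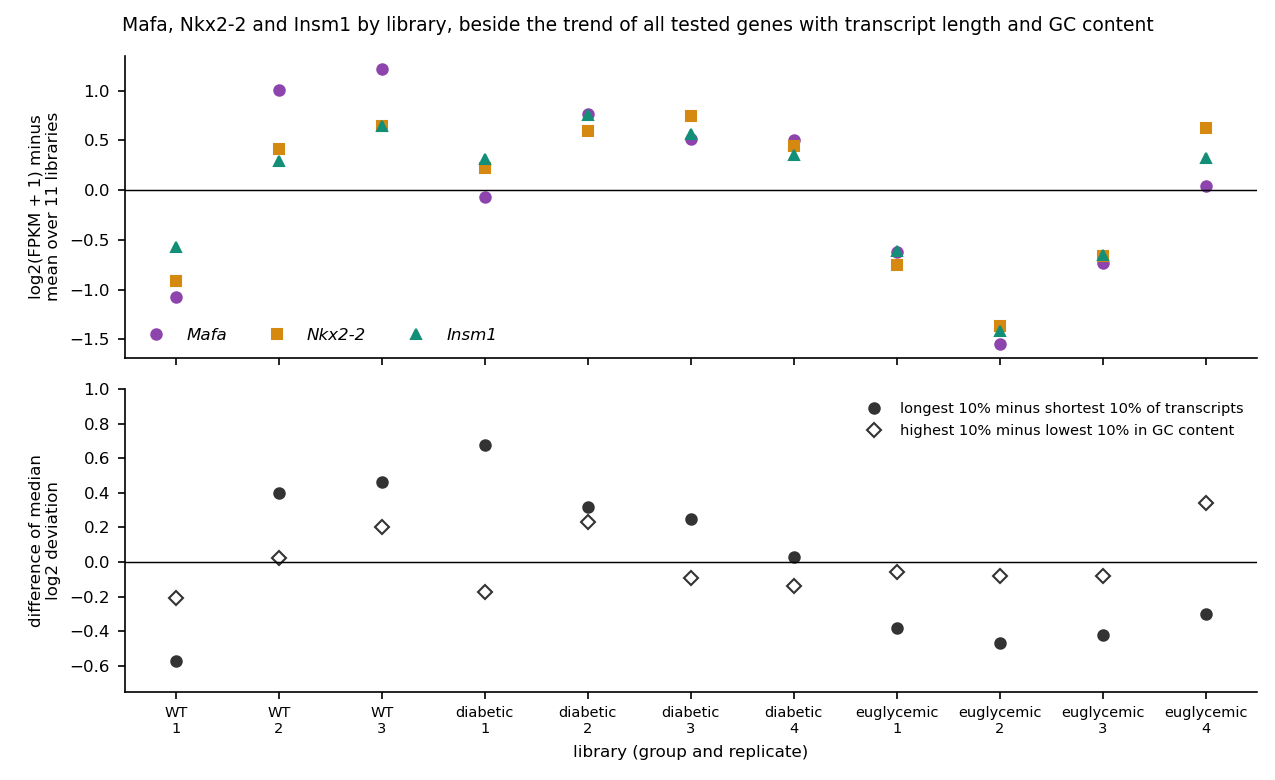
Upper part: deviation of log2(FPKM + 1) from the mean over 11 libraries (y axis) of *Mafa* (circles), *Nkx2-2* (squares) and *Insm1* (triangles) in each library (x axis: group and replicate). Lower part: for all tested genes, the median log2 deviation of the longest minus the shortest 10% of transcripts (filled) and of the GC-richest minus the GC-poorest 10% (open), where the filled points of WT replicate 1 and of the 4 euglycemic libraries lie between −0.57 and −0.30 and all others above 0.

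Several mature β-cell genes, many of which these factors bind, passed the test where no factor did. Whether they differed from WT by more than the factors was not tested. The list of mature genes was chosen with earlier results of these data known. Each of the 7 called in diabetic libraries had been reported by the study as lower without *Raptor*. The counts and medians of this list are therefore partly set by that choice. Of 24 such genes tested, 7 fell and 0 rose in diabetic against WT libraries, where 0.969% of all genes were called in either direction. In euglycemic against WT libraries, which share the WT samples, 4 fell and 0 rose, where 0.551% were called. The largest differences were those of *Cox6a2*, a subunit of cytochrome c oxidase (log2 difference −2.20, adjusted p = 0.00915, in diabetic libraries), and *Slc2a2*, the glucose transporter GLUT2 (−2.06, adjusted p = 0.00254). *Slc2a2* was 69.7 to 87.0 FPKM in WT, 13.1 to 21.4 in diabetic and 14.0 to 29.6 in euglycemic libraries, without overlap between WT and either mutant group. *Slc30a8*, the zinc transporter of insulin granules (−1.78, adjusted p = 0.0027), *Gipr*, the receptor of the incretin GIP (−1.64, adjusted p = 0.0327), and the cation channel gene *Trpm5* (−1.84, adjusted p = 0.00915) fell as well in diabetic libraries. In euglycemic libraries the 4 genes were *Slc2a2* (−1.79, adjusted p = 0.00712), *Gipr* (−1.76), *Cox6a2* (−1.74) and *Slc30a8* (−1.31). The median over the 24 genes was −0.55 in diabetic and −0.61 in euglycemic libraries, beside −0.28 and −0.51 over the 10 factors. The insulin genes, which *Pdx1*, *Neurod1* and *Mafa* bind, had differences of −0.51 (*Ins1*) and 0.14 (*Ins2*) in diabetic and −0.65 and −0.40 in euglycemic libraries, with adjusted p from 0.393 to 0.937.

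**Figure D4:**
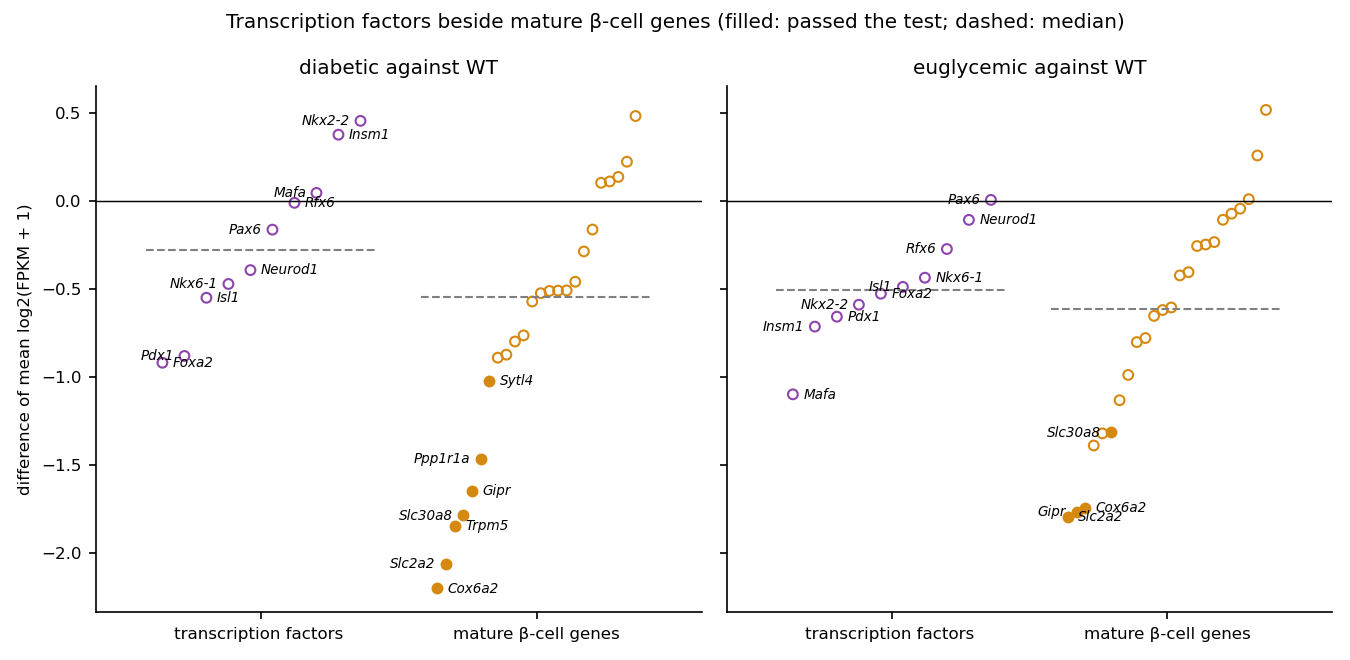
Difference of mean log2(FPKM + 1) from WT (y axis) of the 10 transcription factors and of the 24 mature β-cell genes tested (x axis, each list in order of its values), in diabetic and in euglycemic libraries. Filled points passed the test (7 and 4 mature genes, 0 factors) and dashed lines are medians (−0.28 and −0.55 on the left, −0.51 and −0.61 on the right). The mature genes were listed with earlier results of these data known.

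No other regulator examined passed the test either, where 0.00889% to 1.05% of all genes tested were called in the 4 comparisons. At such shares a list of this size often holds 0 calls. Of 25 further islet transcription factors 19 could be tested and 0 were called in any of the 4 comparisons, with medians of 0.14 in diabetic and −0.17 in euglycemic against WT. None of 20 tested cofactors, such as the LIM-domain partner *Ldb1*, was called, and none of 10 tested relatives of the same gene families. Of 9 α- and δ-cell transcription factors 5 could be tested and 0 were called, with medians of 0.79 and 0.53 against WT. None of 9 immediate early genes was called. Every diabetic library lay above every WT library for 3 islet factors, 3 cofactors, 2 family relatives and 3 α- and δ-cell factors. Every diabetic library lay below for 2 immediate early genes, and 13.5% of all genes were without overlap in either direction. In euglycemic against WT libraries 1 islet factor and 1 cofactor were above and 2 and 1 below, beside 10.9% of all genes. The lists share some genes.

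The genes whose levels followed each factor most closely over the 11 libraries were named by their Pearson correlation on the log2(FPKM + 1) scale, as a description of libraries that share their preparation and depth. For *Mafa* they were *H1fx*, *Evl* and *Zdhhc8* (r = 0.964 to 0.962), for *Nkx2-2* *Zmiz2*, *Ppp2r5b* and *Mapre3* (0.972 to 0.964) and for *Insm1* *Zfp592*, *Map7d1* and *Mapre3* (0.955 to 0.951). *Pdx1* was followed by *Rcan2*, *Tmem206* and *Ccm2* (0.938 to 0.934), *Nkx6-1* by *Wwp2*, *Junb* and *March4* (0.929 to 0.872) and *Foxa2* by *Uckl1*, *Cnot8* and *Btg2* (0.925 to 0.907). For *Isl1* the genes were *Btg1*, *Mtmr7* and *Rnf138rt1* (0.965 to 0.964), for *Rfx6* *Naa16*, *Slc16a12* and *Kctd12b* (0.956 to 0.948), for *Neurod1* *Nprl3*, *Izumo4* and *Gm26617* (0.929 to 0.887) and for *Pax6* *Minpp1*, *Trappc3* and *Ccm2* (0.810 to 0.806). Only genes outside the list of 10 were ranked.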

How the data were processed

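RNA of GFP-sorted islet cells was measured in 11 libraries. The authors deposited 1 FPKM value per gene and library. The study's methods name Tophat and Cufflinks and the submitters' processing notes HISAT2 2.0.4 and StringTie 1.3.0, both with mm10, and which made the table was not settled. Totals of fragments were inferred from the step between low values of 4490 single-exon genes (9498908 to 16645722 per library). The 34745 entries included 478 without a symbol. The euglycemic columns were matched to the insulin-treated samples by elimination.

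Fits used limma 3.58.1 in R 4.3.3 (lmFit, eBayes with a trend) on log2(FPKM + 1), all 11 libraries together, over the 11251 genes that reached an FPKM of 1 in 3 or more libraries, with Benjamini-Hochberg adjustment over all of them. A difference is on that scale and understates changes of low genes. The fit was tested on simulated data. *Rptor* was below the filter and compared by exact permutation. Promoters were RefSeq windows, and transcript lengths came from GENCODE vM21. Tables were made with Python 3.11.15, numpy 2.4.6 and pandas 2.3.3. All 10 factors are reported in every comparison, of other lists up to 5 called genes with the largest differences, and for each factor its 3 closest genes by correlation. *Ins1* and *Ins2* were added to these. Single-gene results of some genes on the lists are not reported here. The factors and all lists were chosen with earlier results of these data known. Alternatives were the filter, pseudocount 0.1, TPM, the median of ratios, a fit without the third group, library weights, no trend, the replicate block, other thresholds and leaving out each library. The adjustment for GC content and length, and the alternatives of the count of factors without overlap, were chosen after seeing the data.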

Additional observations from a re-analysis of the deposited data

Results flagged for a closer look

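In 2 of the 20 groups of 4 libraries examined (10 factors in the diabetic and in the euglycemic group), 1 library stood apart from the others of its group. The rule was Dixon's criterion on the log2(FPKM + 1) scale. *Neurod1* was 94.2 FPKM in euglycemic replicate 2, where the other 3 libraries were between 126 and 129.8. *Rfx6* was 17.0 FPKM in diabetic replicate 2, where the others were between 33.9 and 38.5, and *Pdx1* (39.0), *Isl1* (11.2) and *Foxa2* (4.58) also had their lowest diabetic value in that library, whereas *Mafa* (45.3) and *Insm1* (88.6) had their highest there. Chance alone marks about 1 group in 20 by this criterion.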

How the results depend on the processing

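Of 790 refits of single factors, 750 kept the direction and the side of the threshold, 28 reversed the direction and 12 passed the threshold, 11 of them with library weights. The count of factors called was 0 in all comparisons with each setting but these. It was 2, 2, 3 and 2 (diabetic against WT, euglycemic against WT, diabetic against euglycemic, both against WT) at unadjusted p, it was 4, 3 and 4 with library weights in the last 3 comparisons (beside 20.3%, 10.8% and 9.92% of all genes tested), and without 1 library at a time it ranged from 0 to 1 in euglycemic against WT (the 1 without WT replicate 1, beside 4.76%). The number of factors with every diabetic below every WT library was 2 after rescaling to TPM (beside 4.90% of all genes), 6 without WT replicate 1 (12.6%) and 5 without diabetic replicate 2 (8.04%). The differences that reversed were between −0.17 and 0.046 as reported, apart from *Nkx2-2* in diabetic against WT (0.45). Diabetic against WT, *Mafa* was −0.56 with library weights, −0.094 with the replicate block and −0.68 to 0.46 without single libraries, *Nkx2-2* −0.026 to 0.75 without single libraries, and *Rfx6* 0.066 with TPM, 0.023 with the replicate block and −0.15 to 0.25. Euglycemic against WT, *Neurod1* was −0.20 to 0.011 without single libraries and *Pax6* −0.034 with TPM and −0.11 to 0.11. Diabetic against euglycemic, *Nkx6-1* was 0.084 with TPM, 0.17 with library weights and −0.25 to 0.11, and *Isl1* 0.056 with TPM and −0.37 to 0.24. Both against WT, *Nkx2-2* was −0.55 to 0.23 and *Insm1* −0.51 to 0.093 without single libraries. TPM moved the median of all genes to 0.12 in diabetic against euglycemic. The causes were not tested. Libraries with the same number did not deviate together (mean correlation −0.13 in 10 pairs, 0.043 in 30 others), and the replicate block left 0 factors called.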

Other observations

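Exons of other genes overlap those of 2 of the 10 factors, and reads in the shared bases can come from either gene. Knowing the strand of a read would separate only genes on opposite strands. *Nkx2-2os*, on the opposite strand of *Nkx2-2*, shares 9.67% of its exon bases and was at most 0.449 FPKM in any library. *Cerkl*, on the strand of *Neurod1*, shares 7.37% of the *Neurod1* exon bases and was 1.93 to 3.87 FPKM, and *Gm26755*, on the opposite strand, shares 5.64% and was at most 0.394 FPKM. All 3 were far below the levels of the factors they overlap.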
